A study of Mus musculus with 9 samples.

Results

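The 9 genes described here write, erase or read DNA methylation: the methyltransferase genes Dnmt1, Dnmt3a and Dnmt3b, the dioxygenase genes Tet1, Tet2 and Tet3, and the methyl-CpG binding domain genes Mbd1, Mbd2 and Mbd3. They were chosen by name from a table of 21423 genes, and all 9 were in it. DNA methyltransferases add a methyl group to cytosine, mostly where it is followed by guanine (CpG). Dnmt1 copies the pattern onto new DNA strands, while Dnmt3a and Dnmt3b set new methyl groups. TET enzymes oxidise the methyl group, which opens the way to its removal by base excision repair, and MBD proteins bind CpG sites and recruit chromatin complexes such as NuRD, the nucleosome remodelling and deacetylase complex. In neurons, which no longer divide, these enzymes and readers stay active, and Dnmt3a in the nucleus accumbens is known from work on cocaine and on stress.

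Messenger RNA was sequenced from punches of the nucleus accumbens, a region of the ventral striatum involved in reward, of adult male C57BL/6 mice aged 2 to 5 months. The withdrawal group received cocaine intraperitoneally on 7 days and was then left in the home cage for 8 days. The cocaine group had the same injections and was killed 24 h after the last, and the saline group received saline (10 ml/kg) with the same timing as the cocaine group. The labels give the cocaine dose as 10 or 20 mg/kg per day without tying a dose to a library. Each group is a single library prepared from pooled RNA of 8 mice and run on 3 lanes. The 9 samples are therefore 3 libraries with 3 technical lanes each. No p-value about a treatment can be given, and every spread quoted below covers sequencing only, not differences between mice.

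Levels are RPKM, reads scaled to gene model length and to the reads of the lane, so that genes can be ranked within a library. Means are given with the SD over the 3 lanes of a library. Differences between libraries are differences of mean log2(RPKM + 0.5), a scale that understates the change of low genes, with a standard error (SE) from the lanes. Lanes are called apart where the lowest lane of a library lies above the highest lane of the other. A gene was called when its lanes were apart and the difference reached 1.5 times on this scale. The 14051 genes whose 9 lanes averaged 1 RPKM or more were tested. Of the 9 genes, 8 passed this filter, and Dnmt3b did not.

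Lane totals ran from 5546362 to 12026754 reads. Medium spiny neuron markers identified the tissue, with all 10 of 10 detected in every lane and a summed level of 1715 to 1735 RPKM in withdrawal lanes, 1419 to 1505 RPKM in cocaine lanes and 1987 to 2089 RPKM in saline lanes. Cocaine lanes were the lowest of these. In cocaine against saline 2 of 10 were called lower, where 2.41% of all tested genes were. In withdrawal against saline none was called. The median difference of the 10 markers from saline was -0.32 in cocaine and -0.01 in withdrawal. Markers of other cells also differed between the libraries. The summed level of 10 of 10 endothelial markers was 117 to 120.4 RPKM in withdrawal lanes, 97.9 to 105 RPKM in cocaine lanes and 76.1 to 78.5 RPKM in saline lanes, with 8 of 10 called higher in withdrawal and 5 of 10 in cocaine against saline, where 3.96% and 2.93% of all tested genes were. For 6 of 6 oligodendrocyte precursor markers it was 58.4 to 62.2, 58.1 to 59.7 and 36.3 to 41.1 RPKM in withdrawal, cocaine and saline lanes. Of these 6, 1 was called higher in each comparison with saline, with a median difference of 0.30 in withdrawal and 0.36 in cocaine. The summed level of 7 of 7 cortical projection neuron markers, of which 4 passed the filter, was 16.4 to 18.2, 18.03 to 21.5 and 29.3 to 32.7 RPKM in withdrawal, cocaine and saline lanes. The 8 of 8 markers of dividing cells, where Dnmt1 is known to be high, summed to 6.59 to 7.45, 7.79 to 9.002 and 9.33 to 11.3 RPKM in withdrawal, cocaine and saline lanes. Of these 8, 2 passed the filter, and Cdk1 was at 0 in a lane. Astrocyte markers summed to 581 to 592, 599 to 603 and 534 to 556 RPKM in withdrawal, cocaine and saline lanes. Oligodendrocyte markers summed to 1738 to 1759, 1817 to 1854 and 1923 to 1949 RPKM in the same order. In both lists the lanes of the 3 libraries were apart. Microglia markers summed to 115.1 to 125.4, 117.5 to 132.7 and 132.4 to 145.9 RPKM. Withdrawal lanes were below all saline lanes, and cocaine lanes overlapped with both. In summed level, cocaine lanes were the highest for astrocytes and in 2 further lists. The astrocyte sum and the typical astrocyte marker went in unlike directions. The median difference from saline of the 7 astrocyte markers was -0.15 in cocaine and -0.23 in withdrawal, with none called. The 5 of 5 erythroid markers summed to 336 to 363 RPKM in withdrawal lanes, 573 to 650 RPKM in cocaine lanes and 446 to 474 RPKM in saline lanes, and 5 of 5 were called lower in withdrawal against cocaine, where 0.548% of all tested genes were. The 5 of 5 choroid plexus markers summed to 7.04 to 9.88 RPKM in withdrawal lanes, 12.5 to 16.7 RPKM in cocaine lanes and 6.78 to 10.5 RPKM in saline lanes. Of these 5, 2 passed the filter, and Folr1 and Kcne2 were at 0 in some lanes. The part of these markers in the results was not tested. In bulk tissue, fewer cells of a type and less RNA per cell cannot be told apart.

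The promoters of the 3 TET genes, whose transcripts stood higher in both libraries of cocaine-treated mice, are shown beside that of Mbd3, whose transcript stood lower. Each line gives the 250 bases before the gene's start from RefSeq on build GRCm38.p6, 5′ to 3′ on the gene's strand, with CpG in capitals. RefSeq promoters were matched by symbol for 7 of the 9 genes.
Tet1 (chr10:62887325-62887574, minus strand): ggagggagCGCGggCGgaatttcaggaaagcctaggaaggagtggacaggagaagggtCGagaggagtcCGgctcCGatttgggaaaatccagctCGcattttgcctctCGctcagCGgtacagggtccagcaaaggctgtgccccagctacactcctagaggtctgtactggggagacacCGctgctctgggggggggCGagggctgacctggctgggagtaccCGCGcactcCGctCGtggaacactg
Tet2 (chr3:133544391-133544640, minus strand): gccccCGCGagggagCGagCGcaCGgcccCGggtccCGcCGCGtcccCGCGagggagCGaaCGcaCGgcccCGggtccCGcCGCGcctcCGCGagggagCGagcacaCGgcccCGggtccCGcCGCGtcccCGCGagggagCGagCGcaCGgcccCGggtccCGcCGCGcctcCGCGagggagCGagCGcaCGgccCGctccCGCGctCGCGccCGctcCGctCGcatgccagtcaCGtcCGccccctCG
Tet3 (chr6:83441679-83441928, minus strand): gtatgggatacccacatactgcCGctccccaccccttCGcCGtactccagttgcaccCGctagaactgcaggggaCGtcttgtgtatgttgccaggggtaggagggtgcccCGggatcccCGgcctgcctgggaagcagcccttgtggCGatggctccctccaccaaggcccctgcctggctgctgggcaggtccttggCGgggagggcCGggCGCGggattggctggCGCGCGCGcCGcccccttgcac
Mbd3 (chr10:80399532-80399781, minus strand): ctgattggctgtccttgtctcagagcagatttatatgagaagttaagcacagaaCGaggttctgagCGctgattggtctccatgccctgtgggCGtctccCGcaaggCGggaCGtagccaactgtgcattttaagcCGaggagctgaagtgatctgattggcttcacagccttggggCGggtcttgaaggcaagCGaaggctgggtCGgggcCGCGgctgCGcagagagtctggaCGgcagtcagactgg
The Tet2 window held 51 CpG, a density reached by 0.067% of 32851 promoter windows of this length, in which the median was 6. Tet3 held 17, Tet1 15 and Mbd3 14 CpG, densities reached by 23.5%, 27.3% and 29.4% of windows. The cAMP response element TGACGTCA, the AP-1 site TGANTCA and the E-box CACGTG, each of which reads as itself on the other strand, occurred in 1.55%, 6.75% and 6.02% of all windows. No match to these letters was found in the 4 windows.

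The 9 genes spanned a wide range of levels. In the withdrawal and cocaine libraries Mbd3 averaged 119.5 ± 8.0 and 116 ± 2.0 RPKM, against 149 ± 13 RPKM in the saline library, which placed it 494th, 515th and 442nd among all 21423 genes in that order of libraries. Dnmt3a followed at 26.0 ± 0.74 RPKM in withdrawal, 23.9 ± 0.95 RPKM in cocaine and 21.2 ± 1.9 RPKM in saline. In each library the lanes of Mbd3, of Dnmt3a and of the next gene did not overlap. Then came Tet3, Dnmt1, Mbd1 and Mbd2 between 8.37 and 12.3 RPKM in all 3 libraries. Their order differed by library, and in withdrawal none of these neighbours was apart from the next. Tet3 averaged 12.3 ± 1.0 RPKM in withdrawal, where it followed Dnmt3a, 11.3 ± 0.23 RPKM in cocaine, and 8.37 ± 0.73 RPKM in saline, where it came below Mbd1. Tet2 (8.20 ± 0.66, 8.47 ± 0.18 and 6.32 ± 0.16 RPKM in withdrawal, cocaine and saline), Tet1 and Dnmt3b were the lowest, and their lanes were apart from each other in each library.

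**Figure D1:**
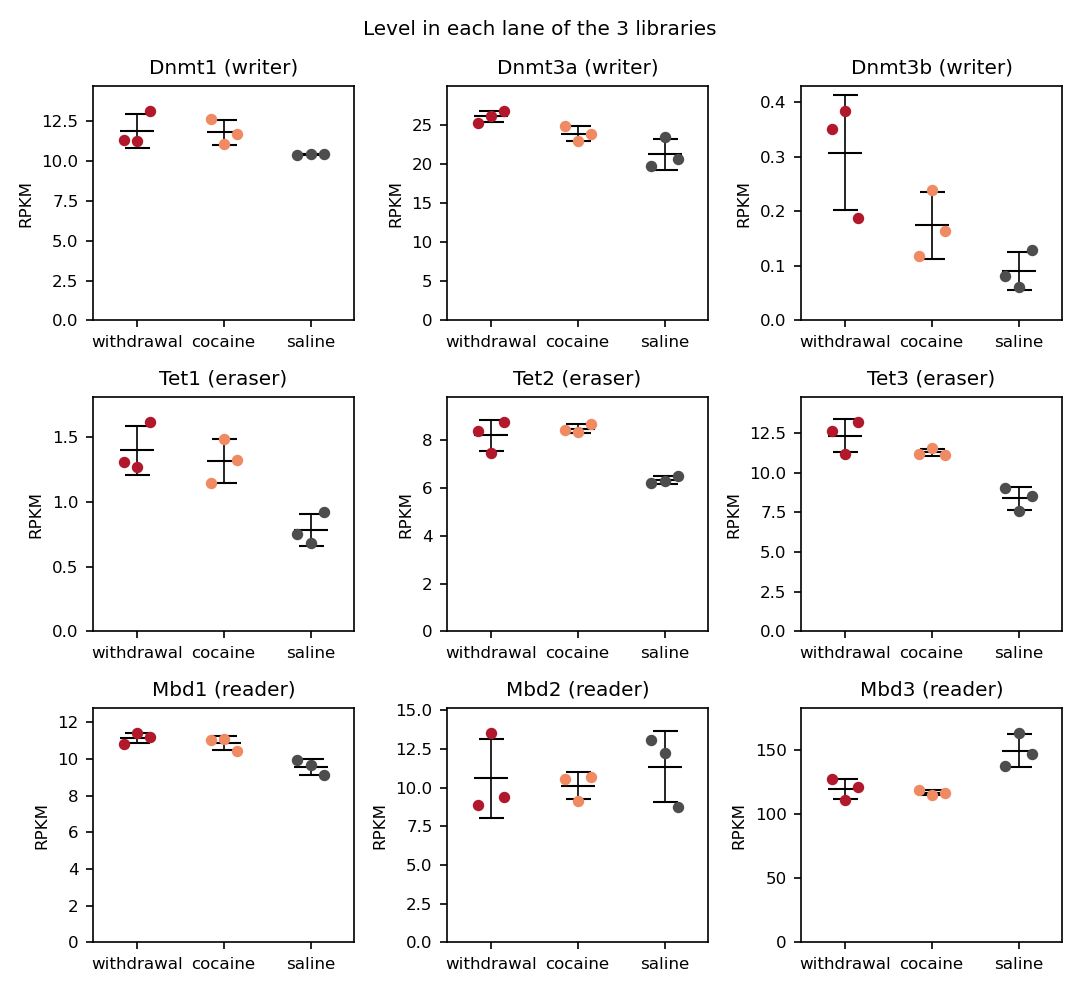
RPKM of the 9 genes in each lane, in the withdrawal, cocaine and saline libraries. Points are the 3 lanes, the horizontal bar with whiskers is the mean ± SD, and each vertical axis starts at 0; all lanes of Tet1, Tet2 and Tet3 in the withdrawal and cocaine libraries lie above all their saline lanes, while Mbd3 lies below.

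The comparisons with saline ask which transcripts differed 24 h after repeated cocaine and after 8 days without it. They share the saline library, so their values are given side by side and are not independent of each other. None of the 8 tested genes was called in cocaine against saline, where 5.33% of all tested genes were, and none in withdrawal against saline, where 7.33% were. In cocaine against saline, the lanes of 5 of the 8 genes were apart and higher and those of 1 were apart and lower, against 18.3% and 23.9% of all tested genes (42.1% in either direction). In withdrawal against saline, 6 of 8 were apart and higher and 1 apart and lower, against 18.6% and 25.6% of all tested genes (44.2% in either direction). The median difference over the 8 genes was 0.17 in cocaine and 0.25 in withdrawal, where that of all tested genes was -0.05 and -0.06. Tet1 passed the filter only through the withdrawal and cocaine libraries. Without it, 4 of 7 genes were apart and higher in cocaine and 5 of 7 in withdrawal, and the medians were 0.17 and 0.21. A limma fit to the 9 lanes compares these libraries and not the treatments. In cocaine 3 of the 8 genes passed an adjusted p of 0.05 (Tet2 and Tet3 higher, Mbd3 lower), against 24.5% of all tested genes. In withdrawal 5 passed (Dnmt3a and the 3 TET genes higher, Mbd3 lower), against 30.2% of all tested genes. These 5 include Tet1, which was tested only through the libraries in which it was high.

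The 3 erasers had the largest differences from saline of the tested members in both comparisons on the deposited values. This order held in neither comparison relative to genes of like length. There Tet2 (0.09 in cocaine and 0.06 in withdrawal) came below Mbd1 (0.12 and 0.17) and, in size, below Mbd3 (-0.17 and -0.11). Tet3, the TET enzyme with the highest transcript level here, had 12.6, 11.2 and 13.2 RPKM in the 3 withdrawal lanes and 11.2, 11.5 and 11.1 RPKM in the cocaine lanes, against 9.02, 7.57 and 8.53 RPKM in the saline lanes. All 6 lanes of the cocaine-treated mice thus lay above the highest saline lane. Its mean level was 1.47 times that of saline in withdrawal and 1.35 times in cocaine, with differences of 0.53 ± 0.098 and 0.41 ± 0.072 (SE).

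Tet2, which has lost the CXXC domain that its relatives use to bind CpG, had 8.38, 7.47 and 8.75 RPKM in withdrawal lanes and 8.40, 8.33 and 8.67 RPKM in cocaine lanes, against 6.20, 6.27 and 6.51 RPKM in saline lanes. The saline lanes lay close together and below all others. The differences were 0.35 ± 0.067 in withdrawal and 0.39 ± 0.026 in cocaine, or 1.30 and 1.34 times the saline level.

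Tet1, the least abundant of the 3, had 1.31, 1.27 and 1.62 RPKM in withdrawal lanes and 1.14, 1.49 and 1.32 RPKM in cocaine lanes, against 0.749, 0.685 and 0.923 RPKM in saline lanes. These values rest on 391, 452 and 290 reads in the withdrawal, cocaine and saline libraries. All saline lanes lay below all others, with a mean level 1.78 times that of saline in withdrawal and 1.68 times in cocaine. On the log2(RPKM + 0.5) scale the differences were 0.56 ± 0.11 and 0.50 ± 0.11, short of the limit of 1.5 times. With a pseudocount of 0.1 they were 0.76 and 0.68, past the limit in both comparisons. These calls are a description, since the mean saline level of Tet1 (0.786 RPKM) was below 1 RPKM and the gene was tested only through the libraries in which it was high.

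Tet1 and Tet3 lay near the limit in withdrawal against saline. Both passed it when the median difference of all genes was set to 0 (0.62 and 0.59), when lanes were scaled to the same 75th percentile (0.61 and 0.60), or without withdrawal replicate 2 (0.61 and 0.60). Tet1 alone passed it without withdrawal replicate 1 (0.60) or saline replicate 3 (0.64).

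Summed over the 3 erasers, the level was 21.9 ± 1.8 RPKM in withdrawal and 21.1 ± 0.34 RPKM in cocaine, against 15.5 ± 0.83 RPKM in saline. Tet3 made up 56.2 ± 0.30% of this sum in withdrawal, 53.6 ± 0.73% in cocaine and 54.0 ± 2.2% in saline, and Tet2 made up 37.4 ± 0.23%, 40.2 ± 1.1% and 40.9 ± 2.2%. The withdrawal lanes were apart from the cocaine lanes in both shares, by under 3 percentage points in the means, and overlapped with saline in the share of Tet3. The share of Tet1 was 6.38 ± 0.50% in withdrawal and 6.25 ± 0.72% in cocaine, against 5.06 ± 0.63% in saline, with overlapping lanes in cocaine against saline.

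Among the writers, Dnmt3a, the main enzyme of new methylation in adult brain, had 25.2, 26.1 and 26.7 RPKM in withdrawal lanes and 24.9, 22.9 and 23.8 RPKM in cocaine lanes, against 19.6, 23.4 and 20.5 RPKM in saline lanes. The withdrawal lanes lay above all saline lanes, and the cocaine and saline lanes overlapped through saline replicate 2. The differences from saline were 0.29 ± 0.077 in withdrawal and 0.17 ± 0.080 in cocaine. In GENCODE antisense transcripts overlap 133 bp of Dnmt3a exons and 43 bp of Tet2 exons, and the library preparation described in the labels names no step that keeps the strand.

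Dnmt1, the maintenance enzyme, had 11.3, 11.2 and 13.1 RPKM in withdrawal lanes and 12.6, 11.1 and 11.7 RPKM in cocaine lanes, against 10.39, 10.43 and 10.42 RPKM in saline lanes. The saline lanes agreed closely and lay below all others. The differences were small, at 0.18 ± 0.070 in withdrawal and 0.17 ± 0.053 in cocaine, or 1.14 and 1.13 times the saline level. The ratio of Dnmt3a to Dnmt1 within a lane was 2.20 ± 0.15 in withdrawal, 2.02 ± 0.054 in cocaine and 2.03 ± 0.18 in saline, and lanes of all 3 libraries overlapped.

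Dnmt3b, the paralogue of Dnmt3a known mostly from the embryo, was close to the detection limit. It had 0.351, 0.384 and 0.189 RPKM in withdrawal lanes and 0.119, 0.240 and 0.165 RPKM in cocaine lanes, against 0.0814, 0.0616 and 0.129 RPKM in saline lanes. Withdrawal lanes lay above saline lanes, while cocaine lanes overlapped both. These levels rest on 29.9, 21.3 and 12.0 reads in the withdrawal, cocaine and saline libraries, where reads that lie in part outside the gene count by their overlap. In the withdrawal library 1 read was worth up to 0.0353 RPKM. The gene made up 0.81 ± 0.30% of the summed level of the writers in withdrawal, 0.49 ± 0.19% in cocaine and 0.29 ± 0.12% in saline.

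The ratio of the summed erasers to the summed writers within a lane, which does not depend on the scaling of lanes, was 0.604, 0.527 and 0.588 in withdrawal lanes and 0.551, 0.624 and 0.593 in cocaine lanes, against 0.530, 0.429 and 0.513 in saline lanes. Cocaine lanes were apart from saline lanes, and withdrawal lanes overlapped with them. The ratio was not set relative to genes of like length, and the eraser gene models (10000 to 14222 bp) are longer than those of the writers (5106 to 7800 bp).

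The readers differed from saline in unlike directions. Mbd3, a core subunit of NuRD whose domain binds methylated CpG weakly in mammals, had 127, 111 and 121 RPKM in withdrawal lanes and 118, 114 and 116 RPKM in cocaine lanes, against 138, 163 and 147 RPKM in saline lanes. All lanes of cocaine-treated mice lay below the lowest saline lane. The differences were -0.32 ± 0.091 in withdrawal and -0.35 ± 0.072 in cocaine, or 0.80 and 0.78 times the saline level.

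Mbd1, which also carries CXXC domains, had 10.8, 11.4 and 11.2 RPKM in withdrawal lanes and 11.07, 11.09 and 10.4 RPKM in cocaine lanes, against 9.96, 9.66 and 9.12 RPKM in saline lanes. Saline lanes were the lowest, and the differences were 0.21 ± 0.041 in withdrawal and 0.17 ± 0.045 in cocaine. The ratio of Mbd3 to Mbd1 within a lane was 11.7, 9.72 and 10.8 in withdrawal and 10.7, 10.3 and 11.1 in cocaine, against 13.8, 16.9 and 16.1 in saline. The ratio was thus below that of saline in every lane, where lanes are technical runs of 1 library per group. The gene models differ in length (1902 bp for Mbd3 and 5494 bp for Mbd1), and the ratio was not set relative to genes of like length.

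Mbd2, which binds methylated CpG and takes the place of Mbd3 in a separate form of NuRD, had 8.86, 13.5 and 9.38 RPKM in withdrawal lanes and 10.5, 9.15 and 10.7 RPKM in cocaine lanes, against 13.1, 12.2 and 8.73 RPKM in saline lanes. Lanes of the same library differed as much as the libraries did. The differences, -0.10 ± 0.25 in withdrawal and -0.14 ± 0.19 in cocaine, were within their SE.

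**Figure D2:**
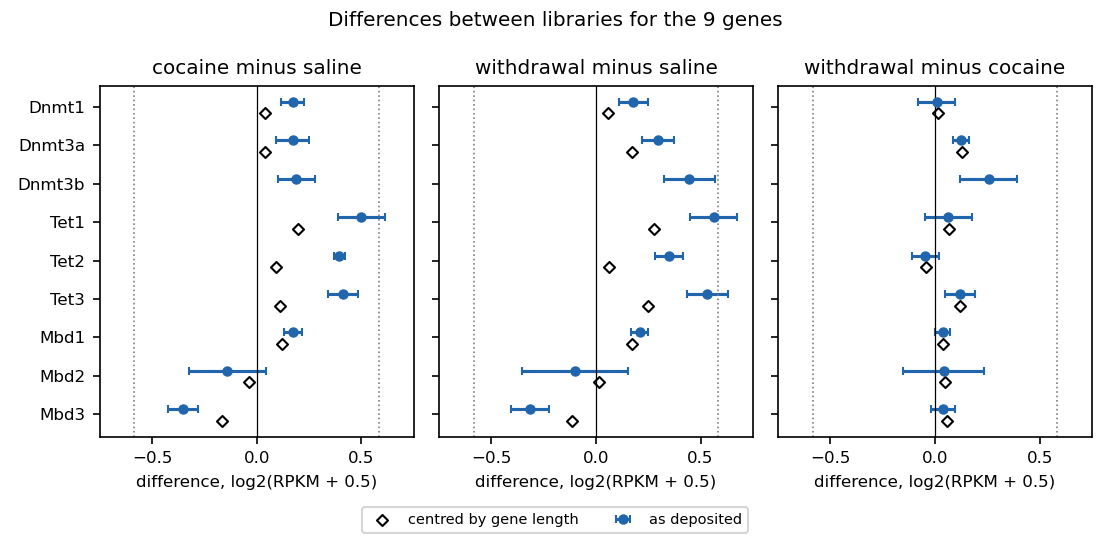
Differences between libraries on the log2(RPKM + 0.5) scale for the 9 genes, in 3 comparisons. Circles with whiskers are values as deposited ± SE over lanes, diamonds are values after subtracting the median of genes of like length (Dnmt3b, below the filter, has none), and dotted lines mark 1.5 times; no circle passes a dotted line, and the diamonds of the TET genes lie nearer to 0 than their circles in both comparisons with saline.

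Gene length ran along with these differences. Across the 14051 tested genes the difference from saline correlated with the length of the gene model, with Spearman's rho of 0.464 in cocaine and 0.422 in withdrawal, and 0.013 in withdrawal against cocaine; genes are not independent replicates. The TET gene models are long, at 14222 bp for Tet1, 10798 bp for Tet2 and 10000 bp for Tet3, all in the longest of 20 length bins, while Mbd3 at 1902 bp was in bin 5. In the longest bin the median difference from saline over 703 genes was 0.30 in cocaine and 0.28 in withdrawal, and in the bin of Mbd3 the medians were -0.18 and -0.20.

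Relative to genes of like length, the differences of the members were smaller. In cocaine against saline they were 0.20 for Tet1, 0.09 for Tet2, 0.11 for Tet3, 0.04 for Dnmt1, 0.04 for Dnmt3a, 0.12 for Mbd1 and -0.17 for Mbd3. Lanes stayed apart for Tet2 and Mbd1 as higher and for Mbd3 as lower, against 16.3% and 16.4% of all genes. In withdrawal against saline they were 0.28 for Tet1, 0.06 for Tet2, 0.25 for Tet3, 0.06 for Dnmt1, 0.17 for Dnmt3a, 0.17 for Mbd1 and -0.11 for Mbd3. Lanes stayed apart and higher for Tet1, Tet3 and Mbd1, against 18.7% of all genes, and for no member as lower, against 18.1%. Mbd2 was at -0.04 in cocaine and changed sign to 0.01 in withdrawal. The part of gene length in the differences of these genes was not tested further.

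**Figure D3:**
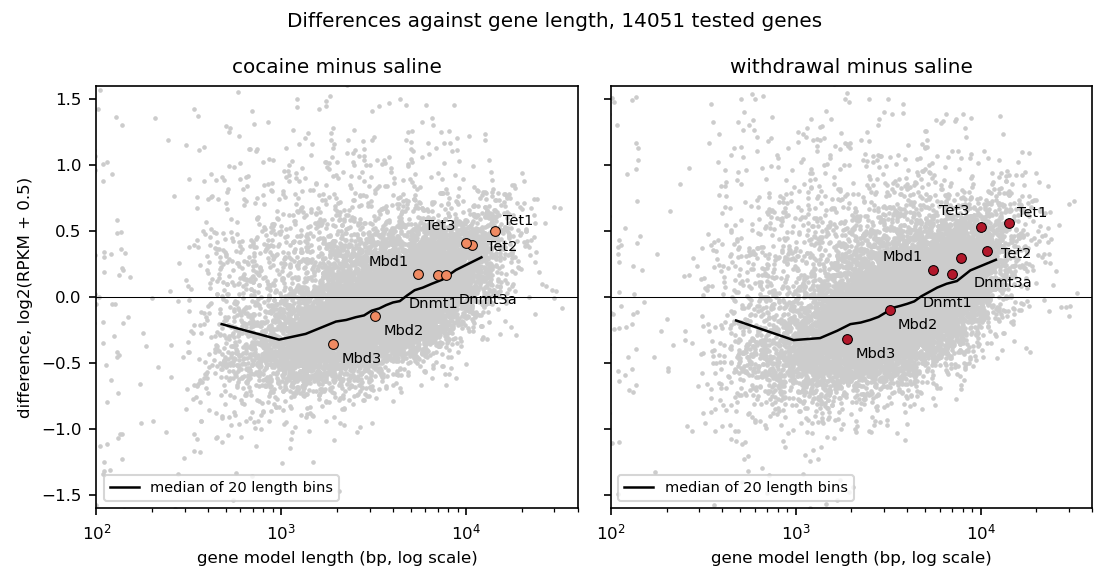
Difference from saline on the log2(RPKM + 0.5) scale against gene model length on a log axis for the tested genes (grey), for cocaine and for withdrawal, with the 8 tested members as coloured points; genes beyond the axis limits are not drawn. The black line joins the medians of 20 length bins. The long TET genes lie near its right end and above it, and Mbd3 lies below its left part.

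Withdrawal against cocaine asks what differed between 8 days and 24 h after the last injection. None of the 8 tested genes was called, where 1.02% of all tested genes were. Differences ran from -0.05 for Tet2 to 0.12 for Dnmt3a, with a median of 0.04 against -0.01 for all tested genes. Dnmt3a was the only member whose lanes were apart, with 25.2 RPKM in its lowest withdrawal lane and 24.9 RPKM in its highest cocaine lane (0.12 ± 0.040), where 8.66% of all tested genes were apart and higher and 9.42% apart and lower (18.1% in either direction). Relative to genes of like length its difference was 0.13 with lanes still apart, as for 9.32% of genes that were higher and 8.72% that were lower. With limma no member passed, where 0.37% of all tested genes did. Tet3 differed by 0.12 ± 0.070, Tet1 by 0.06 ± 0.11, Mbd1 by 0.04 ± 0.034, Mbd3 by 0.04 ± 0.058 and Dnmt1 by 0.01 ± 0.088, with overlapping lanes.

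Other genes of the pathway were followed in 6 lists. Of all tested genes, 3.96% were called higher and 3.37% lower in withdrawal against saline, 2.93% and 2.41% in cocaine against saline, and 0.47% and 0.548% in withdrawal against cocaine. This balance depended on the scaling. In withdrawal against saline 557 genes were called higher and 473 lower, against 729 and 309 once all differences were centred on their median, 765 and 280 with 75th percentile scaling, and 595 and 174 relative to genes of like length. In cocaine against saline the numbers were 411 and 338, against 505 and 230, 535 and 204, and 476 and 98 under the same settings. Over the 6 lists, calls in cocaine against saline were 1 higher and 3 lower, and 3 higher and 1 lower under both scalings, with Mbd5 (0.60 and 0.61) and Mtr (0.60 in both) gained as higher. In withdrawal against saline they were 3 higher and 3 lower, against 3 and 2 after centring on the median, 4 and 2 with 75th percentile scaling, which added Zbtb4 (0.59), and 2 and 0 relative to genes of like length. The list of other methyl-CpG readers, 7 of 7 tested, had a median difference of 0.37 in withdrawal and 0.29 in cocaine against saline, with none called. The list was drawn by name and includes Mbd5 and Mbd6, and the withdrawal median was the value of Mbd6. Mbd5 is not known to bind methylated DNA, so the list is not one of known binders alone. Lanes were apart and higher for 5 of 7 and lower for 1 in withdrawal, against 18.6% and 25.6% of all tested genes, and higher for 4 and lower for none in cocaine, against 18.3% and 23.9%. Zbtb4, a zinc finger protein that binds methylated CpG, averaged 83.1 ± 3.2 RPKM in withdrawal and 74.8 ± 1.4 RPKM in cocaine, against 57.9 ± 3.0 RPKM in saline (0.52 ± 0.053 and 0.37 ± 0.046). Mbd5, an MBD protein not known to bind methylated DNA, stood at 7.07 ± 0.43 and 7.26 ± 0.53 RPKM in withdrawal and cocaine, against 4.80 ± 0.24 RPKM in saline (0.51 ± 0.060 and 0.55 ± 0.068), and was called in cocaine without cocaine replicate 3 or saline replicate 3 (0.59 each). Mbd4, a glycosylase that also reads methylated CpG, had overlapping lanes in both comparisons (0.16 ± 0.19 in withdrawal, -0.02 ± 0.18 in cocaine). The median of this list relative to genes of like length was 0.13 in withdrawal and 0.08 in cocaine.

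NuRD, the complex that holds Mbd2 or Mbd3, had 12 of 12 genes tested and a median of -0.08 in withdrawal and -0.10 in cocaine against saline, with 1 called higher and none lower in each. The called gene was Gatad2b, which encodes a zinc finger subunit that binds MBD proteins. It had 20.0, 17.5 and 17.1 RPKM in withdrawal lanes and 14.3, 17.9 and 18.3 RPKM in cocaine lanes, against 7.95, 8.81 and 9.28 RPKM in saline lanes. The lowest lane of cocaine-treated mice lay well above the highest saline lane. Gatad2b rose by 1.03 ± 0.093 in withdrawal and 0.91 ± 0.13 in cocaine. With a size limit of 2 times it was called in withdrawal and not in cocaine, and it stayed called in both under the other settings tried and without each lane in turn. An antisense gene model overlaps 247 bp of its exons in GENCODE. The deacetylase gene Hdac2 averaged 13.4 ± 0.13 RPKM in withdrawal and 16.01 ± 1.5 RPKM in cocaine, against 20.1 ± 0.70 RPKM in saline, with lanes apart and no call (-0.57 ± 0.029 and -0.32 ± 0.081); without saline replicate 1 it was called in withdrawal (-0.59). Hdac1 differed by -0.26 ± 0.075 in withdrawal, with lanes apart, and by -0.10 ± 0.056 in cocaine. The remodelling ATPase gene Chd4 differed by -0.01 ± 0.022 and -0.10 ± 0.055.

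Genes of active demethylation and base excision repair, 18 of 23 tested, had a median of -0.18 in withdrawal, with 1 called higher and 3 lower, and of -0.15 in cocaine, with none higher and 3 lower. Gadd45b, a stress-induced gene linked to demethylation in neurons, had 2.67, 2.11 and 3.06 RPKM in withdrawal lanes and 2.55, 2.33 and 2.70 RPKM in cocaine lanes, against 4.15, 4.53 and 7.06 RPKM in saline lanes. It fell by 0.86 ± 0.25 in withdrawal and by 0.89 ± 0.22 in cocaine. Relative to genes of like length the withdrawal value was -0.55 and no longer called, and a filter of 5 RPKM removed the gene, as it did Neil2 and Mtr. Apex1, the endonuclease of base excision repair, fell to 24.9 ± 2.2 RPKM in withdrawal and 27.3 ± 2.9 RPKM in cocaine, against 41.4 ± 2.0 RPKM in saline (-0.73 ± 0.083 and -0.60 ± 0.094), with values of -0.42 and -0.32 relative to genes of like length, neither of them called. In cocaine its call ended with the median difference set to 0 (-0.55), with 75th percentile scaling (-0.53), and without cocaine replicate 1 (-0.54), cocaine replicate 2 (-0.57) or saline replicate 1 (-0.57). Most of its exons overlap a gene on the other strand in GENCODE, 877 of 1422 bp.

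The glycosylase gene Neil2 fell by 0.63 ± 0.26 in withdrawal (1.29, 1.19 and 0.789 RPKM against 2.62, 1.98 and 1.38 RPKM in saline lanes). This call was lost without withdrawal replicate 3 (-0.49) or saline replicate 1 (-0.46), with a pseudocount of 1 (-0.51), under both scalings (-0.58 each) and by length (-0.32). Neil2 also did not pass with limma. Gadd45g fell by 0.61 ± 0.20 in cocaine, a call lost without cocaine replicate 3 (-0.46) or saline replicate 2 (-0.53), with the composite values (-0.57), under both scalings (-0.57 and -0.54) and by length (-0.29). The ligase gene Lig3 rose by 0.63 ± 0.11 in withdrawal, a call lost without withdrawal replicate 3 (0.53), with a pseudocount of 1 (0.57) and by length (0.52), and 1826 bp of its exons overlap Rffl. Gadd45a, with 337 bp of exons overlapped on the other strand, differed by -0.60 ± 0.46 in withdrawal against saline with overlapping lanes, and was called without saline replicate 3 (-0.82). Against cocaine it fell by 0.63 ± 0.43, a call that ended without withdrawal replicate 2 (-0.30), without cocaine replicate 1 (-0.36), with a pseudocount of 1 (-0.58), and with the median difference set to 0 or centring by length (-0.63 each, lanes overlapping). Gadd45a did not pass with limma in this comparison. Tdg, the glycosylase that removes oxidised methylcytosine, differed by -0.04 ± 0.094 in withdrawal and by -0.01 ± 0.076 in cocaine.

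Writer partners, 6 of 9 tested, had a median of -0.09 in withdrawal and -0.08 in cocaine against saline and no call. Uhrf1, which guides Dnmt1 to newly copied DNA in dividing cells, was below the filter at 0.713 ± 0.19 RPKM in withdrawal, 0.840 ± 0.093 RPKM in cocaine and 0.761 ± 0.35 RPKM in saline. Uhrf2, its relative, was at 8.95 ± 0.36, 8.90 ± 0.76 and 9.30 ± 0.37 RPKM in the same order, with overlapping lanes. Dmap1, which binds Dnmt1, had the largest difference of this list in withdrawal (-0.37 ± 0.13, lanes apart), and the imprinting factor gene Zfp57 in cocaine (0.37 ± 0.18, lanes overlapping). Zfp57 also led withdrawal against cocaine, with -0.35 ± 0.39.

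The methyl donor cycle makes and recycles the methyl group, and 10 of its 13 genes were tested. Its median was -0.09 in withdrawal, with 1 called higher, and -0.08 in cocaine, with no call. Mtr, which remakes methionine from homocysteine, had 3.35, 2.92 and 3.04 RPKM in withdrawal lanes and 2.35, 2.91 and 2.53 RPKM in cocaine lanes, against 1.36, 2.05 and 1.49 RPKM in saline lanes. It rose by 0.77 ± 0.15 in withdrawal and differed by 0.55 ± 0.16 in cocaine without a call, but with one without cocaine replicate 1 (0.61) or saline replicate 2 (0.69). Mat2a, which makes the methyl donor, differed by -0.31 ± 0.019 in withdrawal and by -0.16 ± 0.051 in cocaine, and Ahcy, which clears the product of methyl transfer, by -0.14 ± 0.066 and -0.22 ± 0.056. The 4 CXXC readers of unmethylated CpG had medians of 0.01 and -0.07 and no call, and their largest differences were 0.17 ± 0.21 for Kdm2b in withdrawal and -0.22 ± 0.064 for Cxxc1 in cocaine. In withdrawal against cocaine, Gadd45a was the only call over the 6 lists. The largest differences of the other lists were 0.32 ± 0.13 for Mbd6, -0.25 ± 0.076 for Hdac2, -0.46 ± 0.24 for Mtrr and 0.16 ± 0.069 for Cxxc1.

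**Figure D4:**
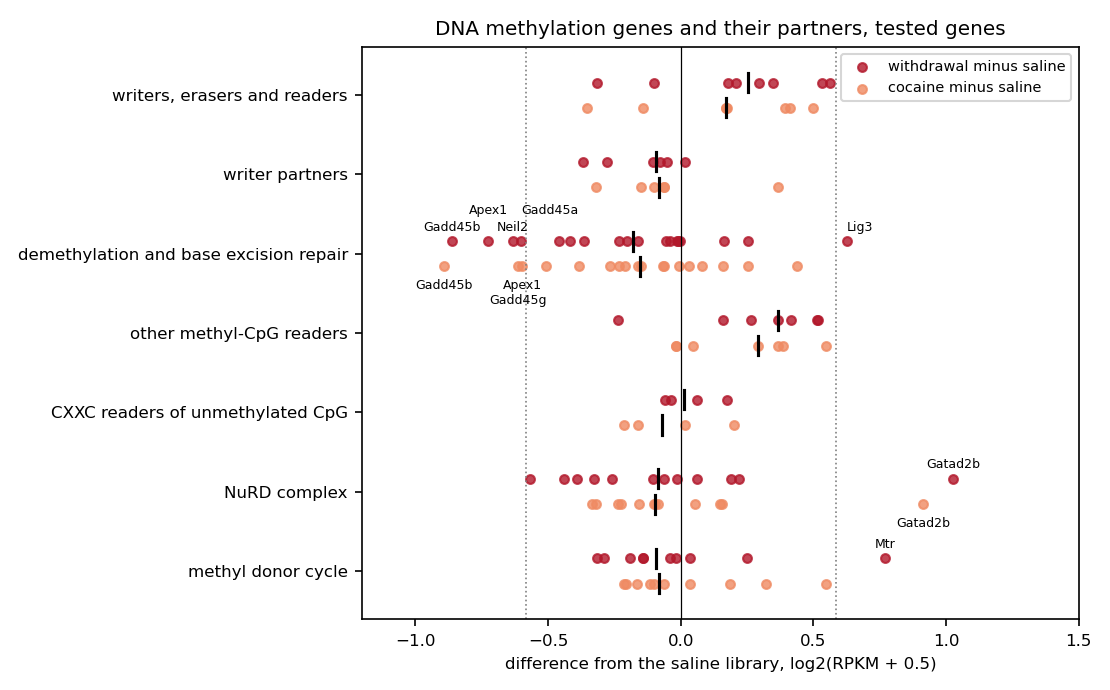
Difference from saline on the log2(RPKM + 0.5) scale for the tested genes among the writers, erasers and readers and in 6 lists of partners, for withdrawal and for cocaine. Points are genes, black bars are medians, dotted lines mark 1.5 times and genes beyond them are named; no writer, eraser or reader lies beyond, and Gatad2b lies farthest to the right.

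The genes whose pattern over the 9 lanes was most like that of the members with the largest differences were found by the Euclidean distance of centred log2 values among the tested genes. For Tet1 they were Maml3 (distance 0.21), Tmtc1 (0.22) and Phka2 (0.22), and for Tet3 they were Bbs1 (0.15), Phka2 (0.16) and Mgat5 (0.17). Their gene models were also long, from 6453 bp for Maml3 to 8578 bp for Tmtc1. Phka2, named for both, averaged 6.05, 5.82 and 4.03 RPKM in withdrawal, cocaine and saline.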

How the data were processed

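Poly(A) RNA was fragmented, copied with random primers and sequenced with 37 cycles from each end from inserts of about 200 bp, per the labels' protocols. The authors deposited RPKM for each lane and a composite for each library, with lane totals per the file headers. Per the submitters' processing notes, Bowtie 0.12.7 and build mm9 were used; counter and annotation are not given in the sources used here. Smaller deposited tables held the same values. Multiplied by lane total and gene length, values gave whole multiples of 1/37 read within a relative tolerance of 1e-11. The smallest such length was taken as the gene model length, and for 107 genes (14 tested) it was multiplied by 37, because it was under 37 bp or because this alone brought it within 1.5 times of the longest GENCODE transcript; reads are not whole, so count tests were not run.

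Calls are as defined above (pseudocount 0.5 RPKM, filter at 1 RPKM, 1.5 times, lanes apart). The code for them was run on simulated lanes with known changes. Those lanes held lane noise only, without differences between pools or library preparations, so they do not test calls from 1 library per group. No p-value about treatment was computed, since n is 1 library per group. Members, lists, tests and alternatives were chosen with earlier results of these data known. Named genes were the 9 members, 11 fixed pathway genes, and each list's called genes and largest difference. A fixed pathway gene is not reported here. The alternative model was limma (version 3.58.1, R 4.3.3) on the 9 lanes at an adjusted p of 0.05; it compares these libraries, not the treatments. Others were pseudocounts of 0.1 and 1, filters of 5 RPKM and none, limits of 1.25 and 2 times, no lane condition, median centring, 75th percentile scaling, centring in 20 bins of gene length, composites, pairing lanes by number and dropping each lane in turn. Promoters are from RefSeq, on another build than the files.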

Additional observations from a re-analysis of the deposited data

How the results depend on the processing

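In withdrawal against cocaine 0 members were called under every setting tried. In cocaine against saline the number was 1 with a pseudocount of 0.1, 4 with the smaller size limit and 3 with limma at an adjusted p of 0.05, and 0 under the others. For withdrawal against saline the number was 1 with a pseudocount of 0.1, 3 with the smaller size limit, 2 with the median difference set to 0, 2 with 75th percentile scaling, 5 with limma, and 0 to 2 without 1 lane.

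Over all genes, called numbers were 749 in cocaine against saline, 1030 in withdrawal against saline and 143 in withdrawal against cocaine. In that order they were 399, 591 and 43 with a filter of 5 RPKM, 3077, 3697 and 653 with the smaller size limit, 146, 190 and 27 with a limit of 2 times, and 3447, 4239 and 52 with limma. Withdrawal against cocaine had 296 calls without a filter, 314 without the lane condition, 282 with composites and 233 to 273 without 1 lane.

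Members kept their direction except Mbd2 in withdrawal against saline, which was 0.014 when centred by length and -0.28 to 0.0099 without 1 lane. Values without 1 lane in withdrawal against cocaine crossed 0 for Mbd2 (-0.14 to 0.15), Mbd3 (-0.0073 to 0.089), Tet1 (-0.017 to 0.13), Tet2 (-0.092 to 0.015) and Dnmt1 (-0.061 to 0.057). Lane numbers did not pair lanes, since deviations of same-numbered lanes correlated at -0.051 to 0.076. With lanes paired by number (replicate block), 0 members were called in each comparison, and 828, 1167 and 203 genes over all.

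A single library per group limits every comparison: differences between pools of mice or library preparations cannot be told apart from treatment. Dnmt3b is limited by depth, at 12.0 to 29.9 reads per library.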
